A study of Mus musculus with 18 samples.

Results

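The ERH comparison set 6 libraries of ERH knockout cells against 6 libraries of control cells, which is 12 of the 18 small RNA libraries of the series, and followed all 1006 miRNA entries of the count table. The cells were Baf3, an interleukin-3-dependent line of mouse pro-B cells. Both groups carried Cas9 and 1 guide RNA from a stably integrated vector, were selected with puromycin and received no other treatment. The ERH group held 2 populations, 1 for each of 2 guides against Erh, and the control group held 2 populations with guides against Rag1, a recombinase gene that serves as a control target. Each population gave 3 libraries, numbered as batches 1 to 3 in the labels. The knockout populations were polyclonal and had been sorted for de-repression of a dsRed reporter of miR-15a activity, then regrown, so a low miR-15a in them is in part how they were obtained. How the control populations were sorted is not stated for them separately. Since the 3 libraries of a population share 1 edited population, p-values measure the spread between these libraries, and with the population as the unit a permutation of 2 against 2 could not go below p = 0.333. A fit to counts summed per population called 71 higher and 64 lower.

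MicroRNAs are cut as hairpins out of long primary transcripts by Microprocessor, the complex of the nuclease Drosha and its partner DGCR8, and several hairpins often share 1 transcript as a cluster. Some hairpins are poor Microprocessor substrates and are cut well only when a good substrate lies beside them, which is called cluster assistance. ERH is a small conserved protein that binds DGCR8, and the pair mir-15a and mir-16 is a standard example of an assisted hairpin and its helper. Erh mRNA is not part of a miRNA count table, so the loss of the targeted gene could not be checked here.

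Both Erh guides lie in a coding exon of Erh on chromosome 12 (GRCm38), in exon 4 or exon 5 depending on the transcript, and their sites overlap by their end bases on opposite strands. Guide 1 matches chr12:80634452-80634471 on the minus strand and guide 2 matches chr12:80634433-80634452 on the plus strand. They are shown because the 2 knockout populations differ in them, with the PAM of the genome in capitals.
ERH guide 1: agatctacgtgctcctccgtCGG
ERH guide 2: cagcctgttgggcctgccgaCGG
Each also has a full match with the same PAM in the gene models Gm10131 on chromosome 8 and Gm13831 on chromosome 5. The control guides match coding exon 2 of Rag1 on chromosome 2, at 101644267 to 101644286 and at 101644054 to 101644073.

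The mature sequences below carry the comparison, with the seed, bases 2 to 8, in capitals. The first lines are miRNAs that fell, each set beside a relative or cluster neighbour.
miR-15a-5p: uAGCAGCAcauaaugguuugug
miR-15b-5p: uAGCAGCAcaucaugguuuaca
miR-16-5p: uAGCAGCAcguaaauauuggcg
miR-425-5p: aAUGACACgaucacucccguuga
miR-191-5p: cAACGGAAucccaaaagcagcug
miR-98-5p: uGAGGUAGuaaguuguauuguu
let-7f-5p: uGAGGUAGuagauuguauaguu
miR-130b-3p: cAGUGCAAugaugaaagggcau
miR-301a-3p: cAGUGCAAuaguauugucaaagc
miR-19a-3p: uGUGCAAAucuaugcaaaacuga
miR-19b-3p: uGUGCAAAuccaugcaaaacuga
miR-29c-3p: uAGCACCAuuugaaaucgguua
miR-29a-3p: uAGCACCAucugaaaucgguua
The other lines are miRNAs that rose.
miR-10a-5p: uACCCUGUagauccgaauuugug
miR-10b-5p: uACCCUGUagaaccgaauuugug
miR-196a-5p: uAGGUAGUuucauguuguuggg
miR-196b-5p: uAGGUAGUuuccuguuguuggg
miR-148a-3p: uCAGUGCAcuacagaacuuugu
miR-218-5p: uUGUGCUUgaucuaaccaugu
Counted from the 5′ end, miR-19a-3p and miR-19b-3p differ only by U11C, miR-29c-3p and miR-29a-3p by U10C, miR-10a-5p and miR-10b-5p by U12A, and miR-196a-5p and miR-196b-5p by A12C. The difference of 1 base stood outside the seed in each of these 4 pairs. Each entry of the table sums both arms and all gene copies of a hairpin, so mir-16 holds Mir16-1 and Mir16-2 together, and reads of near-identical relatives can have been split between entries in a way that cannot be resolved here.

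The 12 libraries held 2699323 to 4012469 miRNA counts, with medians of 3297974 in control and 3090801 in ERH. Between 396 and 455 entries had a count in a library. The spike-ins, 4 synthetic RNAs added to total RNA, took 0.165% to 0.363% of counts. On the log2 scale miRNA counts over spike-in counts came to 8.72 ± 0.39 for control and 8.69 ± 0.42 for ERH (SD, n = 6), a difference of -0.03 that the exact permutation test did not separate from 0 (two-sided p = 0.898). The libraries of the genotypes overlapped over nearly their whole range. Within each genotype the guide 2 libraries lay higher than the guide 1 libraries, by 0.68 for control and 0.59 for ERH (exact permutation p = 0.1, the smallest that 3 against 3 can give), so the difference between guides was larger in size than that between genotypes.

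Of the 1006 entries, 273 had enough counts to be tested. With edgeR's quasi-likelihood test on TMM-scaled counts, 147 differed between ERH and control at a Benjamini-Hochberg adjusted p under 0.05, which is 53.8% of those tested. They split into 72 higher in ERH (26.4%) and 75 lower (27.5%) in the fit to all 18 libraries, and a fit to the 12 libraries of this comparison alone gave 83 higher and 56 lower of 256 tested. The libraries of the genotypes did not overlap for 102 entries (37.4%). Since so large a share of the tested entries was called, a single call says little. The size, the overlap and the scaling are given where a miRNA is described at length.

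The number of miRNAs called lower also moved with the scaling. Scaling to total miRNA counts gave 108 higher (39.6%) and 33 lower (12.1%). Relative log expression (RLE) scaling gave 81 higher (29.7%) and 65 lower (23.8%). Scaling to the spike-ins gave 72 higher (26.4%) and 19 lower (6.96%). Over all tested entries, the median change on the log2 scale was -0.06 under TMM, 0.24 under total counts, 0.01 under RLE and 0.23 under the spike-ins, so total counts and spike-ins moved the values up by a median of 0.30 and 0.29. No entry called under TMM was called in the opposite direction under another scaling. Called in the same direction under all 4 scalings were 69 higher (25.3%) and 19 lower (6.96%), and these carry the description that follows. Another 56 entries were called lower under TMM and were not called under the spike-ins. All of the 10 most abundant control miRNAs except mir-191 and let-7f are among these. The 19 lower under all 4 scalings are the 19 called lower under the spike-ins. Total counts and spike-ins moved the values about alike but called 141 and 91 entries in all. A missing call under the spike-ins therefore need not mean a smaller change, and the reason for the fewer calls was not tested.

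**Figure D1:**
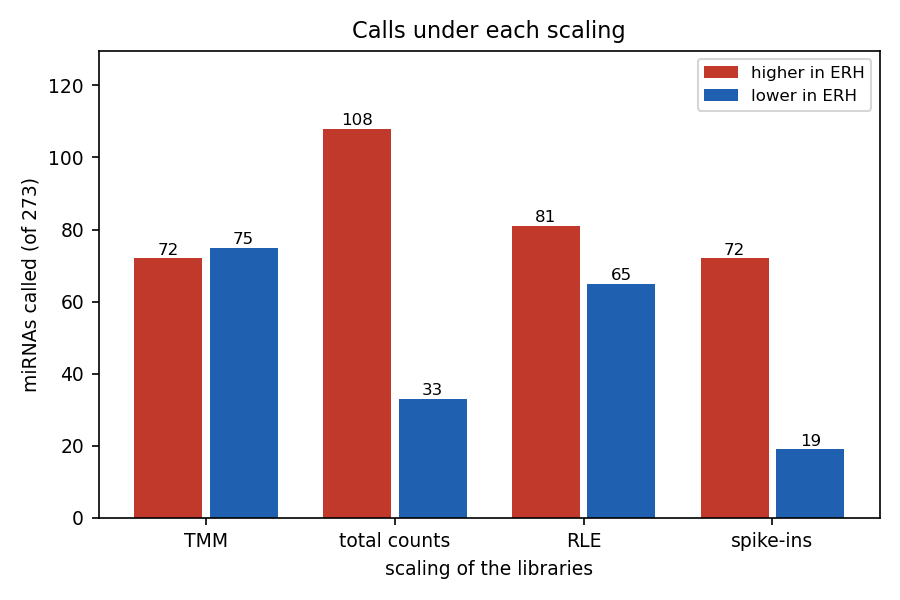
Number of the 273 tested miRNAs called higher (red) or lower (blue) in ERH knockout against control under each of 4 library scalings. The number called lower goes from 75 under TMM to 33 under total counts and 19 under the spike-ins, while the number called higher stays between 72 and 108.

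**Figure D2:**
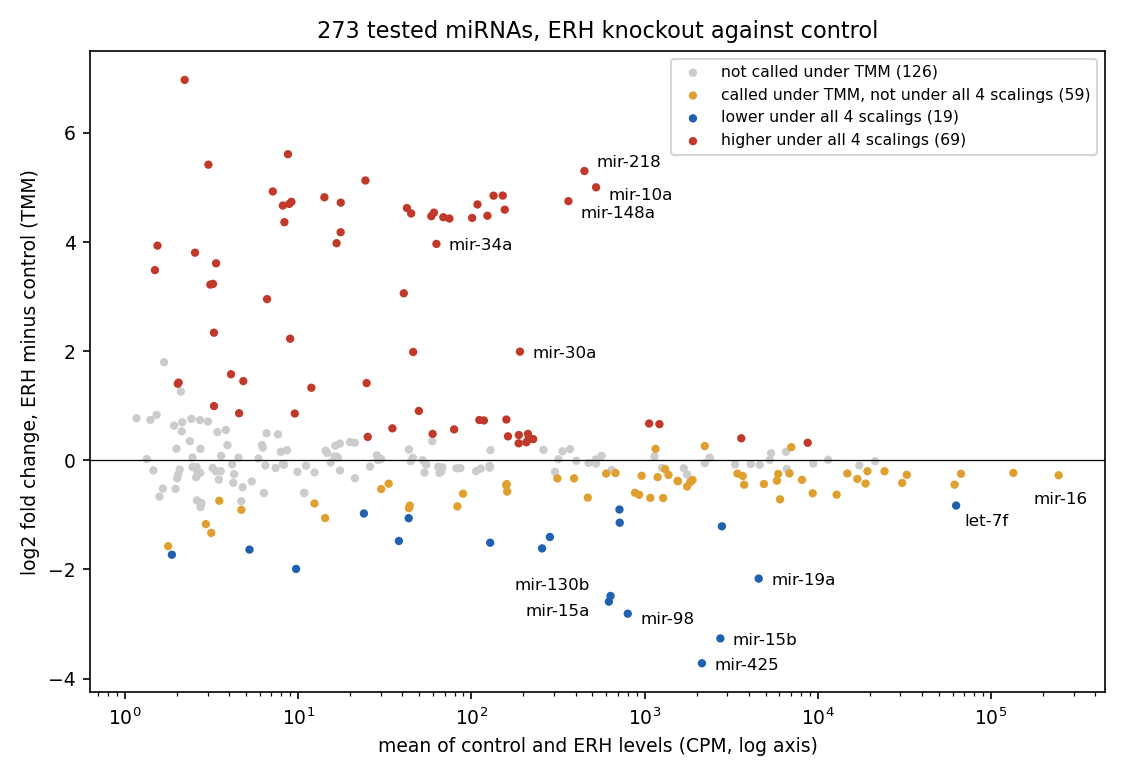
Each point is 1 tested miRNA, placed by its mean level over control and ERH (CPM, log axis) and its TMM log2 fold change, ERH minus control. The 19 miRNAs lower under all 4 scalings include several of high level, whereas most of the 69 higher ones lie at low levels, and the 59 called under TMM but not under all 4 scalings are mostly small falls.

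The assisted hairpins of the mir-15 family fell strongly, and their neighbour mir-16 hardly moved. The level of mir-15b was 4287, 5095 and 5379 CPM (lowest, median and highest of 6 control libraries) and 416, 519 and 615 CPM in ERH, where CPM, as edgeR computes it, is the count scaled to the TMM-corrected miRNA total of its library. Every ERH library lay far below every control library. Fewer cells of a kind and less of a miRNA per cell cannot be told apart in such bulk libraries of polyclonal populations. The log2 fold change of mir-15b was -3.26 (SE 0.10, adjusted p = 3.2e-18), or 9.61-fold lower. miR-15b-5p has the seed of miR-15a-5p and differs from it at 4 of 22 bases. Whether the sort on the miR-15a reporter also selected for low mir-15b was not tested. For mir-15a, the miRNA on which the cells had been sorted, control libraries lay at 947, 1066 and 1146 CPM and ERH libraries at 139, 171 and 225 CPM, again with no overlap (log2 fold change -2.59, SE 0.13, adjusted p = 3.8e-14). Mir15a lies in an intron of the noncoding gene Dleu2 at chr14:61632027-61632110, upstream of Mir16-1, and Mir15b lies in an intron of Smc4 at chr3:69009772-69009835, upstream of Mir16-2. The most abundant entry of the table, mir-16, measured 253223 to 277170 CPM in control and 201986 to 242005 CPM in ERH, ranges that did not overlap. Its log2 fold change was -0.27 under TMM (SE 0.05, adjusted p = 2.8e-05) but 0.03 under total counts and -0.00 under the spike-ins, where it was not called. The other classical pair could not be followed in these cells, since mir-451a had at most 1 count in a control library and 6 in an ERH library, and mir-144 at most 2 in either.

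Among 3 tested entries of the list of assisted hairpins and neighbours, 3 were called lower under TMM and 2 of these, mir-15a and mir-15b, under all 4 scalings. The median log2 fold change of the list, -2.59 against -0.06 over all tested, is the value of mir-15a itself, on whose activity the cells had been sorted. In the mir-15a seed family as a whole, 5 of 6 entries were called lower under TMM (27.5% of all tested were), with log2 fold changes from -3.26 to -0.16, but only mir-15a and mir-15b under all 4 scalings. Because mir-16 dominates this family, its summed share of the miRNA counts was 26.3% ± 0.8 in control and 26.4% ± 0.6 in ERH (SD, n = 6). The fall of mir-15a and mir-15b is thus not visible in this share. On the TMM scale the family sum was 285102 ± 9978 CPM in control and 231520 ± 15062 CPM in ERH.

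The largest fall of all was that of mir-425, which shares the transcript 4833445I07Rik on chromosome 9 with mir-191. Control libraries held 3072, 4095 and 4608 CPM of mir-425 and ERH libraries 199, 296 and 382 CPM. The 2 ranges were far apart, and the log2 fold change was -3.72 (SE 0.15, adjusted p = 4.2e-16), or 13.2-fold lower. Its neighbour mir-191, 384 bases upstream, lay at 19821 to 23871 CPM in control and 17767 to 27076 CPM in ERH. The ranges of mir-191 overlapped. It was not called under TMM (log2 fold change -0.02, adjusted p = 0.920) or under the spike-ins (0.29, adjusted p = 0.346), and was called higher under total counts (0.28, adjusted p = 0.022).

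mir-98, a let-7 relative, fell from 1257, 1400 and 1510 CPM in control to 181, 206 and 216 CPM in ERH, without overlap (log2 fold change -2.81, SE 0.08, adjusted p = 1.5e-18). It lies in an intron of Huwe1 at chrX:151913214-151913321, downstream of a copy of let-7f, Mirlet7f-2. The let-7f entry, which also holds a copy on chromosome 13, was at 77542 to 83920 CPM in control and 43543 to 48392 CPM in ERH (log2 fold change -0.83, SE 0.04, adjusted p = 3.8e-14). It was the only one of the 10 most abundant control miRNAs that was called under all 4 scalings. By contrast let-7i, a separate gene on chromosome 10, changed by -0.25 under TMM and 0.06 under total counts. Over the let-7 seed family, 8 of 9 entries were called lower under TMM, beside 27.5% of all tested, and let-7e was called higher. Under total counts and the spike-ins only mir-98 and let-7f of the 8 were called lower, and let-7a, let-7d and let-7i turned slightly positive. For the family, the summed share of counts was 23.5% ± 0.8 in control and 21.2% ± 0.7 in ERH.

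mir-130b lay at 901, 1097 and 1186 CPM in control and at 172, 184 and 225 CPM in ERH, with no overlap (log2 fold change -2.49, SE 0.09, adjusted p = 5.3e-17). Its neighbour in the same intron on chromosome 16, mir-301b, moved far less (146 to 215 CPM in control, 97.4 to 159 CPM in ERH), with overlapping ranges. It was called lower under TMM (log2 fold change -0.46, SE 0.12, adjusted p = 0.002) but not under total counts or the spike-ins. A seed relative, mir-301a, at a locus of its own, was not called (log2 fold change -0.14, adjusted p = 0.285). The share of counts of mir-130b and mir-301a together was 0.222% ± 0.021 in control and 0.158% ± 0.022 in ERH.

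In the mir-17 to mir-92a cluster (Mir17hg, chromosome 14), known for its role in lymphoid growth, the members differed widely. The entries mir-19b and mir-92a also hold a further copy each on the X chromosome, so they do not come from this transcript alone. mir-19a fell most, from 5618, 7689 and 8418 CPM in control to 1186, 1691 and 2029 CPM in ERH, with no overlap (log2 fold change -2.17, SE 0.12, adjusted p = 2.3e-13). mir-18a followed with 797 to 1065 CPM in control and 382 to 541 CPM in ERH (log2 fold change -1.14, SE 0.10, adjusted p = 9.9e-10). Both were lower under all 4 scalings. The changes of mir-20a (-0.63), mir-17 (-0.48), mir-19b (-0.43) and mir-92a (-0.24) were called under TMM but not under the spike-ins. For mir-92a the direction turned to 0.07 under total counts. The library of ERH guide 2 in batch 3 stood apart from the other 5 ERH libraries in mir-19b and mir-92a, and without it the log2 fold changes were -2.03 for mir-19a, -0.31 for mir-19b and -0.30 for mir-92a.

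The remaining members of the 10 largest falls among miRNAs of at least 100 CPM had medium levels. mir-29c fell from 3561, 3919 and 4230 CPM to 1369, 1802 and 1839 CPM (log2 fold change -1.21, SE 0.09, adjusted p = 7.1e-11). Its close relatives mir-29a (-0.20) and mir-29b (-0.24) were called under TMM only by small changes that turned positive under total counts (0.10 and 0.06), and the share of the mir-29 seed in all counts was 2.61% ± 0.11 in control and 2.60% ± 0.14 in ERH. mir-192 went from 372, 407 and 473 CPM to 100, 135 and 228 CPM (log2 fold change -1.41, SE 0.18, adjusted p = 3.6e-07), with a wider spread in ERH than in control. Its upstream neighbour on chromosome 19, mir-194, which has a further copy on chromosome 1, was called higher under all 4 scalings (0.44, SE 0.11, adjusted p = 0.001). mir-374b (-1.61, SE 0.10) and mir-421 (-1.51, SE 0.10), both in an intron of Ftx on the X chromosome, fell together, from 367 to 408 CPM down to 107 to 151 CPM and from 177 to 213 CPM down to 56.6 to 74.8 CPM. The genotypes overlapped for mir-194 and were apart for the 4 miRNAs that fell.

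**Figure D3:**
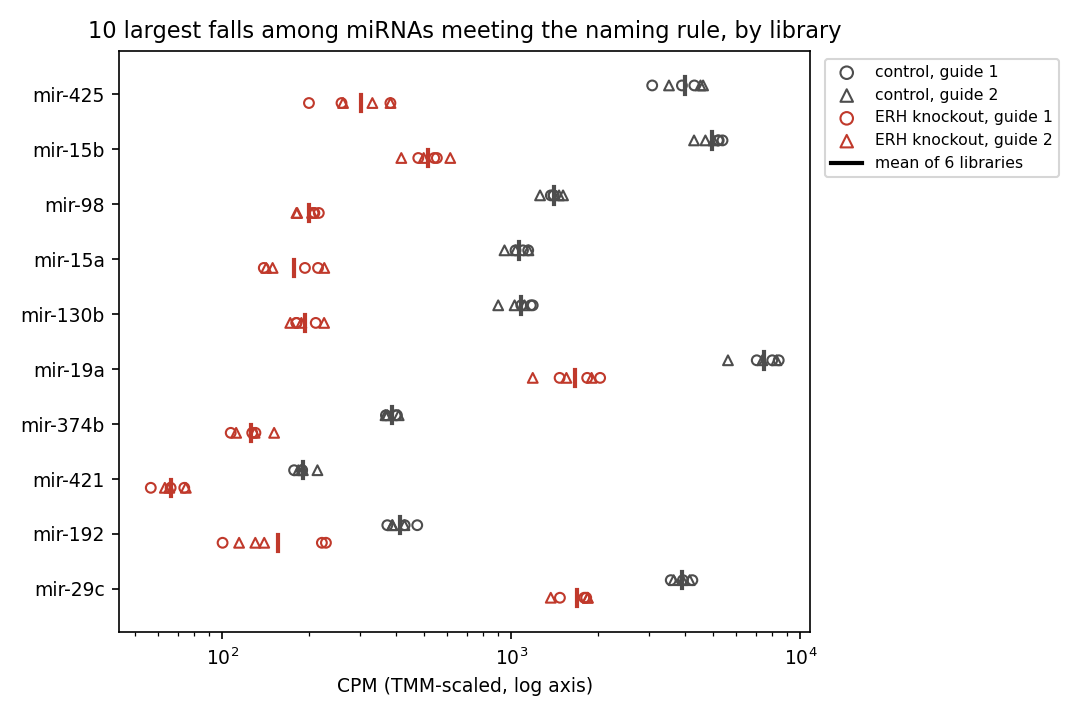
Level of the 10 miRNAs with the largest falls among those that meet the naming rule (at least 100 CPM in a genotype, separate ranges, called under all 4 scalings) in each of the 12 libraries (CPM, log axis), with control in grey and ERH knockout in red, circles for guide 1, triangles for guide 2 and a bar at the mean of 6 libraries. All 6 ERH libraries of each miRNA lie below all 6 control libraries.

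These 10 were chosen for separate ranges and 1 direction in all guide comparisons, so their differences by batch are given as a description. For mir-15b, the differences by batch were -3.30, -3.11 and -3.40 on the log2 scale. For mir-425 they were -4.09, -3.21 and -3.92. Summed over all 19 miRNAs lower under all 4 scalings, the level was 101417 to 111853 CPM in control and 48746 to 54247 CPM in ERH, or 9.60% to 10.3% of miRNA counts in control and 5.48% to 6.22% in ERH. Apart from the 13 with at least 100 CPM in control, 6 were scarce, among them mir-1306, which lies in an exon of Dgcr8 and fell from 12.9 to 18.5 CPM in control to 0.999 to 6.71 CPM in ERH (log2 fold change -1.99, SE 0.34, adjusted p = 2.6e-05). Against the 2 control populations its log2 fold change was -2.9 and -3.0 for ERH guide 1, and -1.4 and -1.5 for guide 2. The difference between these ERH populations was not called. mir-1306 is named after its value was seen, for its host gene.

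Ratios between neighbours on 1 transcript need no scaling, because both members are read in the same library. For 65 pairs of entries with hairpins within 10 kb on 1 strand and a mean of at least 100 counts, made from 60 miRNAs, the log2 ratio of the counts was compared by exact permutation of the 6 against 6 libraries (smallest possible p = 0.002, adjusted over the 65 pairs). The ratio differed for 37 pairs, which is 56.9%, with 21 ratios higher and 16 lower in ERH, and in 28 pairs the libraries did not overlap. A ratio shifted by more than 1 on the log2 scale in 16 called pairs, and the median size of the difference over all pairs was 0.355. Pairs share members, so these counts are not independent, and of the 35 pairs in which both entries have a single gene copy, 16 were called.

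The pairs with the fallers repeated the differences of level in each library. The log2 ratio of mir-425 to mir-191 was between -2.93 and -2.14 in control and between -6.69 and -5.54 in ERH, a difference of -3.72. For mir-15b to mir-16 it went from between -6.01 and -5.58 to between -8.99 and -8.36 (difference -2.99), and for mir-15a to mir-16 from between -8.19 and -7.88 to between -10.73 and -9.81 (difference -2.34). In these 3 pairs the genotypes were clearly separate. The ratio of mir-301b to mir-130b rose by 2.02 and that of mir-98 to let-7f fell by 1.98, both without overlap. The ratio of mir-19a to mir-92a fell by 1.93, and by 1.75 without the library of ERH guide 2 in batch 3, whose ratio of -2.85 lay apart from the -1.94 to -1.60 of the other 5. All 6 differences had an adjusted p of 0.005 in the exact permutation test, the smallest reached. These pairs were named for the size of their differences, which nearly fixes separate ranges and a low p. Both are thus given as a description. The pair of mir-15a and mir-16 also holds the miRNA on whose activity the cells had been sorted.

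The 2 largest shifts were upward and came from the mir-99b, let-7e and mir-125a cluster in Spaca6 on chromosome 17. The log2 ratio of mir-125a to let-7e was between -3.81 and -2.31 in control and between 0.82 and 1.27 in ERH (difference 4.19). That of mir-99b to let-7e was between -5.24 and -3.95 in control and between -0.93 and -0.34 in ERH (difference 3.78). Both had an exact permutation adjusted p of 0.005. Because of how mir-99b and mir-125a passed the filter, these ranks and p-values are given as a description. mir-99b, let-7e and mir-125a were each called higher under all 4 scalings. let-7e differs little from other let-7 miRNAs that are far more abundant here, so its level of 78.7 to 88.3 CPM in control may hold reads of these, which was not tested. At the other end, the smallest differences were -0.03 for mir-106b to mir-93 (exact permutation adjusted p = 0.820), 0.03 for mir-351 to mir-503 (0.723) and -0.02 for let-7d to let-7a (0.723), where the libraries of both genotypes lay on top of each other. mir-374b and mir-421, which fell together, likewise showed no called shift of their ratio (0.11, exact permutation adjusted p = 0.399).

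**Figure D4:**
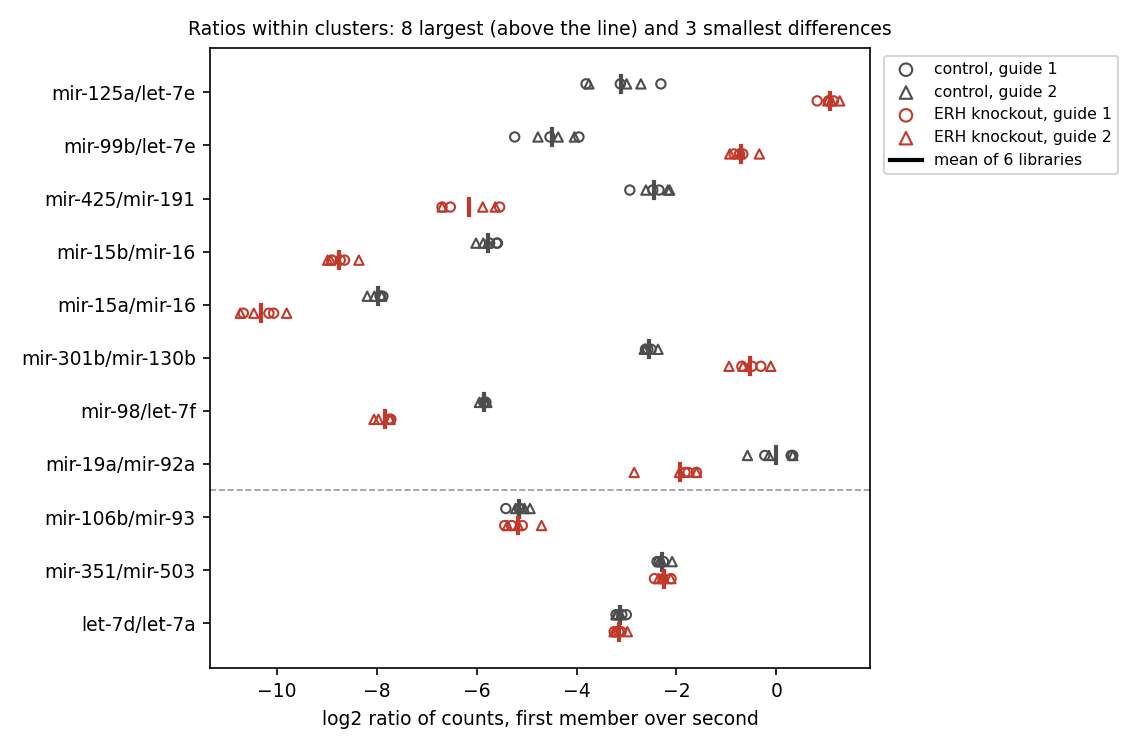
Log2 ratio of the counts of 2 miRNAs of 1 cluster in each of the 12 libraries, with control in grey and ERH knockout in red, circles for guide 1, triangles for guide 2 and a bar at the mean. The 8 pairs above the dashed line have the largest differences between the genotypes, with separate ranges. The 3 below have the smallest, with overlapping ranges. mir-125a and mir-99b, set against let-7e, passed the count filter only through libraries where they are high.

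The list of 73 clustered miRNAs gives the same view across entries. Of its 65 tested entries, 38 were called lower and 17 higher under TMM, and 10 and 17 under all 4 scalings. Over all tested, 27.5% were lower and 26.4% higher under TMM, and 6.96% and 25.3% under all 4 scalings, so the share of the list that was higher was close to the background. The list had a median log2 fold change of -0.24 against -0.06 over all tested. In the mir-106b, mir-93 and mir-25 cluster in Mcm7 the TMM changes were -0.23, -0.20 and -0.09 and turned to 0.08, 0.10 and 0.21 under total counts, and none was called under the spike-ins. Of mir-181a and mir-181b, which share 2 clusters, the first was called higher (0.40, SE 0.10, adjusted p = 0.002) and the second lower under TMM (-0.63, SE 0.11, adjusted p = 3.5e-05), and the ratio of mir-181b to mir-181a fell by 1.04 without overlap. In the X-linked cluster from mir-322 to mir-542, mir-542 was called higher under all 4 scalings (772 to 919 CPM in control, 1161 to 1388 CPM in ERH, log2 fold change 0.67, SE 0.07, adjusted p = 2.7e-08), as was mir-450a (0.48), whereas mir-322 (-0.16) was not called. mir-503 (-0.36, adjusted p = 0.00017) and mir-351 (-0.33, adjusted p = 0.012) were called lower under TMM but not under total counts or the spike-ins. Neighbours called in opposite directions under TMM thus included mir-542 and mir-503, mir-181a and mir-181b, and mir-194 and mir-192.

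Position and shape of the hairpins were described without a test. Of the 19 miRNAs lower under all 4 scalings, 14 had the hairpin of another entry within 10 kb on the same strand (73.7%), against 86 of all 273 (31.5%). Abundant miRNAs are clustered more often, and among those with at least 100 CPM in control the numbers were 12 of 13 against 54 of 106 (50.9%). In the 16 called pairs shifted by more than 1, the relatively lower member was the upstream hairpin in 8 and the downstream one in 8. These pairs had 11 different lower members, and mir-19a was the lower member of several, so the counts are not independent. For 13 of these pairs both hairpins were in the RefSeq table, and the lower member had the less stable predicted fold per base in 5 and fewer paired bases in 4. Without the pairs in which mir-19a is the lower member, these were 5 and 4 of 8. The median folding energy per base was -0.395 kcal/mol for the 17 fallers with a hairpin, -0.436 for 53 miRNAs higher under all 4 scalings and -0.424 for 231 of all tested. Their quartiles overlapped widely, from -0.453 to -0.359 and from -0.477 to -0.367 for the fallers and for all tested.

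The 6 entries known or described to bypass Drosha (mirtrons and capped hairpins) showed 1 called change, beside 53.8% of all tested that were called. Of the 4 tested, mir-320, a hairpin made at a transcription start, was called higher (56.8 to 82.4 CPM in control, 84.4 to 119 CPM in ERH, log2 fold change 0.57, SE 0.14, adjusted p = 0.001) under all 4 scalings. mir-484, mir-877 and mir-1981 were not called, with log2 fold changes of -0.21, -0.59 and -0.23 and adjusted p of 0.242, 0.055 and 0.207. The median of the list was -0.22 against -0.06 over all tested.

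The largest rises exceeded the largest falls in log2 fold change, mostly at low levels, and concerned other miRNAs. Of the 69 miRNAs higher under all 4 scalings, 57 lay under 100 CPM in control, and their median control level was 6.78 CPM against 27.6 CPM over all tested. Of the 69, 15 averaged under 1 CPM in control and passed the filter on counts through another group, so this median is given as a description. Among the 72 called higher under TMM, 27 rose by over 4 on the log2 scale, 12 by 2 to 4, 8 by 1 to 2 and 25 by up to 1. The genotypes were apart for each of the 27, as for 37.4% of all tested, but a choice by size nearly fixes this. mir-153, among them, had no count in any control library, and 9 of the 27 lay under 1 CPM on average in control, so their fold changes depend on the fit, and the sizes are read from the 18 others. For these 18 the log2 fold changes ran from 4.18 to 5.30 with a median of 4.61. The 18 still include mir-96 and mir-99a, with at most 6 counts in a control library. These passed the filter through other groups, so the sizes are given as a description.

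The 10 largest rises were named among miRNAs of at least 100 CPM in either genotype. These 10 averaged 4.91 to 32.0 CPM in control, so they met this only through ERH. Separate ranges were also part of the rule. Their ranges and adjusted p, also those of mir-10a below, are thus given as a description. The largest rise among them was that of mir-218, which lies in introns of Slit2 and Slit3. It was at 16.6, 20.6 and 29.6 CPM in control and at 370, 847 and 1411 CPM in ERH, without overlap (log2 fold change 5.30, SE 0.33, adjusted p = 1.3e-12). Under TMM it was also the only miRNA called between the 2 ERH populations (0.366% of 273), whereas spike-in scaling called 110. The difference of guide 2 minus guide 1 was -1.41 on the log2 scale (adjusted p = 0.002), with guide 1 libraries at 1018 to 1411 CPM against 370 to 676 CPM for guide 2. mir-148a rose from 15.2, 24.6 and 41.7 CPM to 464, 665 and 990 CPM (log2 fold change 4.75, SE 0.26, adjusted p = 1.3e-13). mir-125a (4.85, SE 0.24), mir-9 (4.85, SE 0.27), mir-590 (4.54, SE 0.33) and mir-342 (4.47, SE 0.29) had the same order of change. mir-9, known mainly from neural cells, went from 4.28, 8.25 and 15.7 CPM to 194, 240 and 376 CPM.

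Several miRNAs of the Hox gene clusters rose. mir-10a, which lies among the Hoxb genes on chromosome 11, was at 18.98, 31.5 and 48.5 CPM in control and at 717, 1014 and 1512 CPM in ERH, with no overlap (log2 fold change 5.00, SE 0.27, adjusted p = 9.1e-14). mir-10b in Hoxd3 followed with 4.69 (SE 0.30), mir-615 in Hoxc5, at under 1 CPM in control on average, with 4.74 (SE 0.43), mir-196b in Hoxa9 with 4.59 (SE 0.23) and mir-196a with 4.48 (SE 0.26). These 5 were called higher under all 4 scalings, as were 25.3% of all tested, and they were put together after their values were seen, so nothing is read from their number. The mir-10 seed went from 0.0037% ± 0.0012 to 0.140% ± 0.034 of the miRNA counts and the mir-196 seed from 0.0021% to 0.0612%. All 3 members of the mir-183, mir-96 and mir-182 cluster rose by 4.45 to 4.72. mir-99a (5.13) and mir-125b (4.44) rose while let-7c, annotated in the same host gene and with a further copy elsewhere, was called lower under TMM (-0.41). Since mir-96 and mir-99a had at most 6 counts in a control library, they passed the filter through other groups. Their sizes depend on the fit, and nothing is read from their calls.

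**Figure D5:**
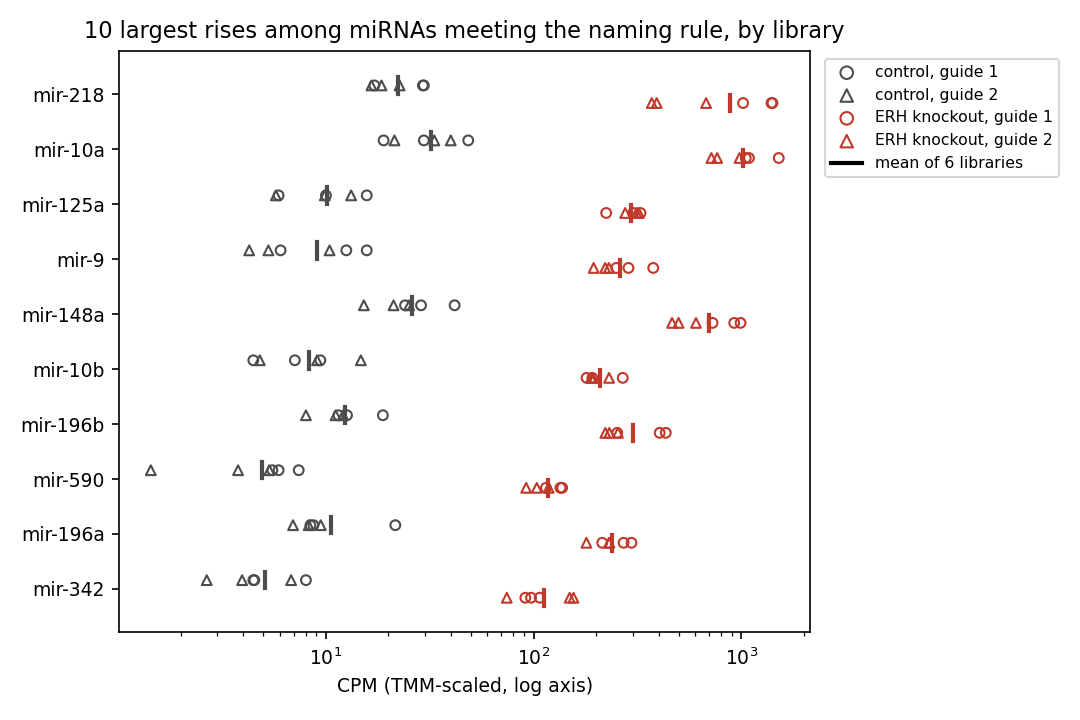
Level of the 10 miRNAs with the largest rises among those that meet the naming rule (at least 100 CPM in a genotype, separate ranges, called under all 4 scalings) in each of the 12 libraries (CPM, log axis), with control in grey and ERH knockout in red, circles for guide 1, triangles for guide 2 and a bar at the mean of 6 libraries. The control libraries reach at most 48.5 CPM and all ERH libraries above them, and for mir-218 the circles of ERH lie above the triangles.

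Together the 27 miRNAs took 121, 172 and 266 CPM (lowest, median and highest library) in control and 4064, 4761 and 6839 CPM in ERH. The 3 libraries of ERH guide 1 lay at 5393 to 6839 CPM and those of guide 2 at 4064 to 4129 CPM, so the populations did not overlap in this sum. Abundant members such as mir-218 weigh most in it, and over the single miRNAs 14 of 27 were lower in guide 2, with a median difference of -0.05 on the log2 scale. The knockout of SAFB1 and SAFB2, measured against the same control libraries, had 1400 to 2348 CPM of them. For the 18 with over 1 CPM in control the log2 fold changes of this knockout ran from 2.43 to 3.63. These 18 include mir-96 and mir-99a, with at most 6 counts in a control library, so the range is a description. In the direct comparison of ERH with SAFB, where 39.6% of all 273 were called, the 27 were higher in ERH by 1.06 to 2.34 on the log2 scale. They had been chosen for their rise in these ERH libraries, so this is a description and no count is read from it.

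Markers of other cell types were looked at beside the rises. Of 20 miRNAs that mark tissues other than blood, 11 were tested, and mir-9 (4.85), mir-375 (3.80), mir-122 (1.33) and mir-128 (0.26) were called higher while 7 were not called, beside 26.4% of all tested called higher. mir-375 averaged 0.278 CPM in control and passed the filter through other groups, so its fold change depends on the fit and its call is not counted as support. Only mir-128 of these 4 was not called under the spike-ins. Their summed level was 2025 to 2401 CPM in control and 2571 to 3237 CPM in ERH, mostly from mir-128. 4 of the 20 were at 0 in all control libraries and 2 of these, mir-206 and mir-294, also in all ERH libraries, while mir-124 and mir-133a reached 6 and 4 counts in an ERH library. Blood cell markers summed to 154233 to 180375 CPM in control and 128912 to 161904 CPM in ERH, with mir-142a at 132729 to 156599 CPM and 109283 to 138730 CPM, mir-223 not called (-0.06) and mir-451a and mir-144 near 0 in both. Of the 9 listed, 7 were tested. Under TMM 4 were called lower, namely mir-142a (-0.23), mir-155 (-0.38), mir-126a (-0.45) and mir-150 (-1.06, adjusted p = 0.001), against 27.5% of all tested, and mir-181a was called higher. None of the 4 was called under the spike-ins. The part of other cells in the rises was not tested.

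Other rises are given here for miRNAs picked after their values were seen. mir-30a went from 64.1, 75.3 and 94.5 CPM to 214, 328 and 379 CPM (log2 fold change 1.99, SE 0.15, adjusted p = 7.1e-11). In the mir-34 family, p53-responsive miRNAs, mir-34a rose by 3.97 (SE 0.57, adjusted p = 2.3e-06), mir-34c by 0.66 and mir-34b by 0.48. The ERH libraries of mir-34a were spread from 13.7 to 227 CPM, all above the 4.01 to 10.8 CPM of control. mir-28a (0.75, SE 0.10), mir-542 (0.67) and mir-101a (0.32, SE 0.08, at 6974 to 8591 CPM in control and 7784 to 11715 CPM in ERH) were also called higher under all 4 scalings, and mir-101a overlapped between the genotypes.

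Most of the 10 most abundant control miRNAs changed little in size. The ranges of 6 of them did not overlap between the genotypes, beside 37.4% of all tested. Of the 10, mir-16, mir-142a, let-7f, let-7i, mir-21a, let-7a, let-7c, mir-93 and mir-19b were called lower under TMM, beside 27.5% of all tested. let-7f (-0.83) alone kept its call under all 4 scalings. The TMM log2 fold changes of the 8 others lay between -0.45 (mir-21a) and -0.20 (mir-93). Under total counts mir-16, mir-142a, let-7i, let-7a and mir-93 turned to between 0.03 and 0.10, and under the spike-ins none of the 8 was called, with mir-21a at -0.18 (adjusted p = 0.598).

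Set beside the SAFB1 and SAFB2 knockout, which used the same control libraries, the fallers differed in size. The log2 fold changes against control were -3.72 in ERH and -4.69 in SAFB for mir-425, -2.59 and -3.61 for mir-15a, -1.41 and -3.22 for mir-192, and -1.21 and -2.82 for mir-29c. The direct test of ERH against SAFB called 39.6% of all 273. In it these 4 and mir-421 were higher in ERH, by 0.97 to 1.82 (adjusted p from 6.6e-12 to 6.0e-06). mir-19a went the other way with -2.17 and -1.02, lower in ERH by 1.15 (SE 0.12, adjusted p = 6.2e-08), and mir-98 (-0.42), mir-374b (-0.30) and mir-15b (-0.24, adjusted p = 0.037) were also lower in ERH. For mir-130b the direct difference of -0.11 (SE 0.08, adjusted p = 0.312) was within error. These 10 miRNAs had been chosen for their fall in the same ERH libraries. The differences and adjusted p are therefore a description, and no count is read from them.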

How the data were processed

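Small RNA libraries were made from TRIZOL total RNA with the QIAGEN QIAseq miRNA kit, per the labels' protocols. From each sample 400 ng of RNA received 4 spike-ins, and 100 ng of the mix was used. The values are raw counts per miRNA hairpin and per spike-in in 1 table deposited by the authors. The submitters' processing notes name SAMtools; the aligner, the annotation, the genome build and the use of molecular identifiers are not given in the sources used here. Members, lists and pairs were chosen with earlier results of these data known.

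Counts were filtered with filterByExpr (minimum count 10) and scaled by TMM; edgeR 4.0.16 (quasi-likelihood, R 4.3.3) was fitted to all 18 libraries by genotype, with Benjamini-Hochberg adjustment over the 273 tested entries and a threshold of 0.05. The test was tried on simulated data. Total counts, RLE, spike-ins, DESeq2 1.42.0, other filters and leaving out libraries or populations were alternatives. CPM are TMM-scaled; log2 ratios of pairs used a pseudocount of 0.5 counts. Positions are from GENCODE M21 (GRCm38) and sequences from RefSeq on the same build, with 267 of the 273 tested entries matched to a gene and 250 to a mature sequence; hairpins were folded with RNAfold 2.7.2.

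Named were mir-15a, mir-15b, mir-16, mir-451a and mir-144; the 10 lowest and 10 highest called miRNAs with at least 100 CPM in either genotype, no overlap, 1 direction in all 4 guide comparisons and the same call under all 4 scalings (13 lower and 21 higher qualified); the members of the 8 largest and 3 smallest pair differences; the 10 most abundant in control; and examples from the lists. The labels have a batch field with the numbers 1 to 3 in every population, taken here to pair the libraries, although deviations from the population means correlated by 0.034 on average for libraries of 1 batch (lowest -0.142, highest 0.234) and by -0.017 otherwise, and over the 150 miRNAs of at least 100 counts by 0.094 (lowest -0.285, highest 0.399) and -0.047. The fit with this replicate block called 146 miRNAs. Intervals are not given for shares over 6 libraries; the number of counts limits the precision of the scarce entries.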

Additional observations from a re-analysis of the deposited data

Results flagged for a closer look

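Of 102 groups of 6 libraries examined (the named miRNAs and ratios in each genotype), 7 held 1 library far from the other 5 by Dixon's ratio of its gap to the whole range, at the 95% critical value; chance flags about 1 in 20 groups. Of these, 4 lay in the library of ERH guide 2 in batch 3: mir-19b (ratio 0.798, low), mir-92a (0.640, high), mir-106b (0.765, high) and the log2 ratio of mir-19a to mir-92a (0.727, at -2.85 against -1.94 to -1.60 in the others). The other 3 lay in control libraries, with mir-421 high in guide 2 of batch 2 (0.626), mir-196a high in guide 1 of batch 1 (0.734) and mir-19b low in guide 2 of batch 3 (0.733). Without the ERH library the log2 fold changes were -0.31 for mir-19b, -0.30 for mir-92a and -0.26 for mir-106b.

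The 2 ERH populations differed in mir-218, where guide 2 minus guide 1 was -1.41 on the log2 scale (edgeR, adjusted p = 0.002), with all 3 guide 2 libraries under all 3 guide 1 libraries.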

How the results depend on the processing

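For the 20 miRNAs named for the largest changes, 500 of 500 values under the alternatives had the same direction and call, which their choice fixed in part, since they were selected for the same call under all 4 scalings. The number of miRNAs called lower was 75 under TMM, 33 under total miRNA counts and 19 under spike-in scaling, where 91 miRNAs were called in all. With spike-in scaling 110 miRNAs were called between the ERH guides and 96 between the control guides, against 1 and 0 under TMM (18 and 7 at an unadjusted p under 0.05). Total counts reversed the log2 fold change mir-16 (0.0284), log2 fold change mir-142a (0.0735), log2 fold change let-7i (0.0584), log2 fold change let-7a (0.0371), log2 fold change mir-93 (0.101), log2 fold change mir-191 (0.281), log2 fold change mir-92a (0.0710), log2 fold change mir-106b (0.0787) and log2 fold change let-7d (0.0165). Spike-in scaling gave 0.0470, 0.0371, 0.0251, 0.0920, 0.290, 0.0395, 0.0528 and 0.00234 for mir-142a, let-7i, let-7a, mir-93, mir-191, mir-92a, mir-106b and let-7d. mir-191 was also positive under RLE and DESeq2 (0.0534 each), with a mean of at least 100 counts (0.117), with the 12 libraries only (0.105) and with counts summed per population (0.0263), and lay between -0.0485 and 0.0928 when single libraries or populations were left out. The miRNA to spike-in ratio (log2) differed by 0.124 with spike-in 3 alone and 0.0537 with spike-in 4 alone, and ran from -0.366 to 0.310 when libraries or populations were left out. Over the same omissions the log2 ratio let-7d/let-7a ran from -0.0565 to 0.0154, the log2 ratio mir-106b/mir-93 from -0.127 to 0.0648 and the log2 ratio mir-351/mir-503 from -0.0166 to 0.0717. The cause of these changes was not tested. Leaving out a library or population gave 125 to 148 miRNAs called. The replicate block (the batch number) gave 146 miRNAs called, 72 higher and 74 lower, and 34 within-cluster pairs called against 37. DESeq2 called 81 higher and 66 lower, the fit to the 12 libraries only 83 higher and 56 lower of 256 tested (median 0.07), and unfiltered counts 82 and 90. The 12-library fit changed the libraries, the filter and the scaling factors together. Scarce miRNAs rest on few counts, which limits the sizes of the rises.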

Other observations

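A few entries outside the tests showed differences that rest on few counts. mir-302a, a miRNA of embryonic stem cells, had 50 counts in all over the control libraries (4 to 11 in each) and 5 over the ERH libraries (0 to 3 in each). mir-203, a miRNA of skin, had 2 counts in control and 41 in ERH. mir-451a had 1 count in control and 16 in ERH, and mir-144 had 4 in each. These entries were below the filter, were chosen after their values were seen and were not tested.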
